A study of Homo sapiens with 39 samples.

Results

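Polyamine metabolism is described here through 7 genes of the 18132 tested, namely ODC1, SRM, SMS, AMD1, SAT1, OAZ1 and AZIN1. They were listed by name as a pathway, but with earlier results of these data known. The platform annotation gives 23 probe sets that name only 1 of these symbols. Where a gene had several, its brightest probe set by the mean of the 39 arrays represents it. The others are given beside some of the drug responses, and vehicle levels are those of the brightest probe set alone. All 7 genes were measured, and no filter on dim probe sets was applied.

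The study asked how acute myeloid leukemia cells respond to tamibarotene (SY-1425), a drug that selectively activates retinoic acid receptor alpha. Affymetrix PrimeView arrays measured mRNA in 7 established human lines, which were OCI-AML3, MV-4-11, Sig-M5, NOMO-1, KG-1a, Kasumi-1 and OCI-M1. Cells received tamibarotene, added at 100 nM to reach 50 nM, or the DMSO vehicle for 24 h. Tamibarotene was read on 3 arrays in each line and vehicle on 3 in OCI-AML3, MV-4-11, OCI-M1 and NOMO-1, but on only 2 in Sig-M5, KG-1a and Kasumi-1. The labels do not say whether replicates were separate cultures, so p-values measure only the spread between these samples.

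Levels are log2 intensities of a probe set, and array medians lay between 5.01 and 5.17. A level of 1 probe set is not compared with that of another. Of the myeloid marker genes measured in vehicle, 3 of 5 in KG-1a and 4 or 5 of 5 in the other lines exceeded the median over all probe sets and arrays. PTPRC in Kasumi-1 (5.11) and MV-4-11 (5.16) and LYZ in KG-1a (5.14) were only just above that median. The T-cell gene CD3E and the B-cell gene MS4A1 lay below this median in all 7 lines, while the epithelial gene EPCAM was at 9.22 in Kasumi-1 and at 3.34 or less elsewhere. The erythroid factors KLF1 and GATA1 were at 11.32 and 9.93 in OCI-M1. CD38, a known retinoic acid target used to check that the drug acted, was called higher after tamibarotene in all 7 lines, with log2 differences between 0.92 (OCI-M1) and 7.18 (MV-4-11). The other drug-check genes were called higher in fewer lines, DHRS3 in 6 (Kasumi-1 at 0.44, adjusted p = 0.199) and CYP26A1 in 5 (Kasumi-1 at 0.38, 0.215, and Sig-M5 at -0.23, 0.352). The beta-actin controls give the 3′ minus the 5′ value, a measure of RNA integrity that grows as RNA degrades. This actin difference was 0.81 in vehicle replicate 1 of Sig-M5, 1.89 in its vehicle replicate 2 and 1.18 in vehicle replicate 2 of Kasumi-1. It lay between -0.02 and 0.56 in the remaining 36 arrays.

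Polyamines are small positively charged molecules that bind nucleic acids and are needed for growth and translation. Ornithine decarboxylase (ODC1) makes putrescine, and spermidine synthase (SRM) and spermine synthase (SMS) add aminopropyl groups that come from S-adenosylmethionine through its decarboxylase (AMD1). SAT1 acetylates spermidine and spermine, which marks them for oxidation or export. Antizyme 1 (OAZ1) binds ornithine decarboxylase and sends it to the proteasome, and the antizyme inhibitor AZIN1 binds antizyme in its place. ODC1 is a textbook target of MYC, which binds the E-box CACGTG. Antizyme synthesis is controlled by a ribosomal frameshift and the synthesis of several of these enzymes by translation, which mRNA arrays do not read.

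The promoter windows of ODC1 and SRM are shown because these 2 genes were lower together in OCI-AML3. RefSeq (GRCh38.p14) gives windows from 250 bases before to 50 after a transcription start, and 9 windows matched 6 of the 7 genes. The letters CACGTG, which read the same on both strands, occur in 7.23% of all 34943 windows, and at least 2 times in 0.661%. They were found 2 times in the window of the more downstream ODC1 start, at -29 and 6 from that start, and 1 time in the SRM window, at -199. G and C make up 80.7% of that ODC1 window and 82% of the SRM window, against a median of 58.7% over all windows. The shares over all windows are therefore not from windows of like base content. Below, each E-box is in capitals, 5′ to 3′ on the minus strand. The ODC1 sequence is chr2:10447983-10448112, from 100 bases before the start to 30 after it. The SRM sequence is chr1:11059989-11060268, from 250 bases before to 30 after.
ODC1: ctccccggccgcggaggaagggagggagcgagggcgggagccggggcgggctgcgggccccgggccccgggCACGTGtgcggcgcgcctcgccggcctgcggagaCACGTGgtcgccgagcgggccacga
SRM: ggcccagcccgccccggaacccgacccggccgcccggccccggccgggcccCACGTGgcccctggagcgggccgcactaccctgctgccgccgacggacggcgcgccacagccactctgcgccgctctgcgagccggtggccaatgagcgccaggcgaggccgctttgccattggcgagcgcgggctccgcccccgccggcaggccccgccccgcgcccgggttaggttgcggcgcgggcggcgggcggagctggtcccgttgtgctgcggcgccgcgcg

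The upstream ODC1 window and the windows of SMS, AMD1, SAT1 and OAZ1 held no CACGTG. A known retinoic acid receptor element, the direct repeat DR5 of AGGTCA with a spacer of 5 bases, was searched on both strands. It was found in 0.00572% of all windows and in none of the 9. Only these exact letters were searched, and a match so rare cannot show that the 9 windows lack such an element. The repeat unit AGGTCA was found 1 time in the SMS window, and in 13.8% of all windows on either strand. These matches are letters in a window and say nothing about binding.

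In vehicle the lines differed in the mRNA level of every one of the 7 genes by a limma F test, which called 78.6% of all genes. SAT1 had the widest range of the 7 and OAZ1 the narrowest. ODC1 was highest in OCI-M1 (12.26 ± 0.02, SD, n = 3) and KG-1a (12.20 ± 0.04, n = 2), followed by Kasumi-1 (11.69 ± 0.12, n = 2), MV-4-11 (11.51 ± 0.05, n = 3), OCI-AML3 (11.27 ± 0.03, n = 3) and NOMO-1 (11.11 ± 0.03, n = 3). It was lowest in Sig-M5 (10.51 ± 0.18, n = 2), 3.36-fold below OCI-M1 (adjusted p of the F test 1.10e-18). The Sig-M5 vehicle arrays had actin differences of 0.81 and 1.89, and replicate 2 held the lower ODC1 value (10.39 against 10.64). Both values were below the lowest NOMO-1 vehicle array (11.09), and the part of RNA integrity in the span was not tested. Neighbours in this order were not called as different at OCI-M1 and KG-1a (adjusted p = 0.529), Kasumi-1 and MV-4-11 (0.0650) or OCI-AML3 and NOMO-1 (0.0796). The other steps were called.

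AMD1, which supplies the aminopropyl donor, spanned 1.06 log2 in vehicle, from 9.22 ± 0.43 in Sig-M5 (n = 2) to 8.16 ± 0.45 in MV-4-11 (n = 3). Its order was Sig-M5, OCI-M1, NOMO-1, KG-1a, Kasumi-1, OCI-AML3 and MV-4-11, and no step between neighbours was called. SRM was highest in KG-1a (12.02 ± 0.02, n = 2) and lowest in NOMO-1 (10.89 ± 0.12, n = 3), a 2.19-fold range. OCI-AML3 (11.79), Kasumi-1 (11.56), MV-4-11 (11.55), Sig-M5 (11.31) and OCI-M1 (11.30) lay between. Kasumi-1 and MV-4-11 were not called as different in SRM (adjusted p = 0.983), nor were Sig-M5 and OCI-M1 (0.973). SMS was highest in OCI-M1 (11.72 ± 0.09, n = 3) and Kasumi-1 (11.40 ± 0.09, n = 2), and both were called above the line next below them. From Sig-M5 (10.85) through MV-4-11, KG-1a and NOMO-1 to OCI-AML3 (10.43) no step of SMS was called.

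SAT1, the catabolic acetyltransferase, ranged 17.7-fold between lines in vehicle. OCI-M1 was at 10.52 ± 0.02 (n = 3), NOMO-1 at 9.95 ± 0.02 (n = 3), KG-1a at 9.55 ± 0.02 (n = 2) and Kasumi-1 at 9.37 ± 0.11 (n = 2). Sig-M5 (7.67 ± 0.12, n = 2), MV-4-11 (7.41 ± 0.08, n = 3) and OCI-AML3 (6.37 ± 0.12, n = 3) were far lower. Of the steps in the SAT1 order, that from KG-1a to Kasumi-1 was not called (adjusted p = 0.163). The gap of 1.69 log2 between Kasumi-1 and Sig-M5 was the largest step of any of the 7 genes.

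OAZ1 spanned only 0.38 log2, from 13.70 in MV-4-11 to 13.32 in OCI-M1, and the last step, from Sig-M5 to OCI-M1, was its only one called (0.17, adjusted p = 0.0172). AZIN1 ran from 10.92 ± 0.07 in KG-1a (n = 2) to 9.20 ± 0.33 in Sig-M5 (n = 2), a 3.28-fold range, and its first and last steps were called. The lower Sig-M5 value of AZIN1 (8.97 against 9.44) was that of vehicle replicate 2, the array with the largest actin difference. Over all 21 pairs of lines, the called differences numbered 20 for SAT1, 19 for SRM, 18 for ODC1, 15 for AZIN1, 14 for SMS, 12 for OAZ1 and 10 for AMD1. Over all genes, 43.4% of the differences between pairs were called, from 29.5% to 57.9% by pair.

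**Figure D1:**
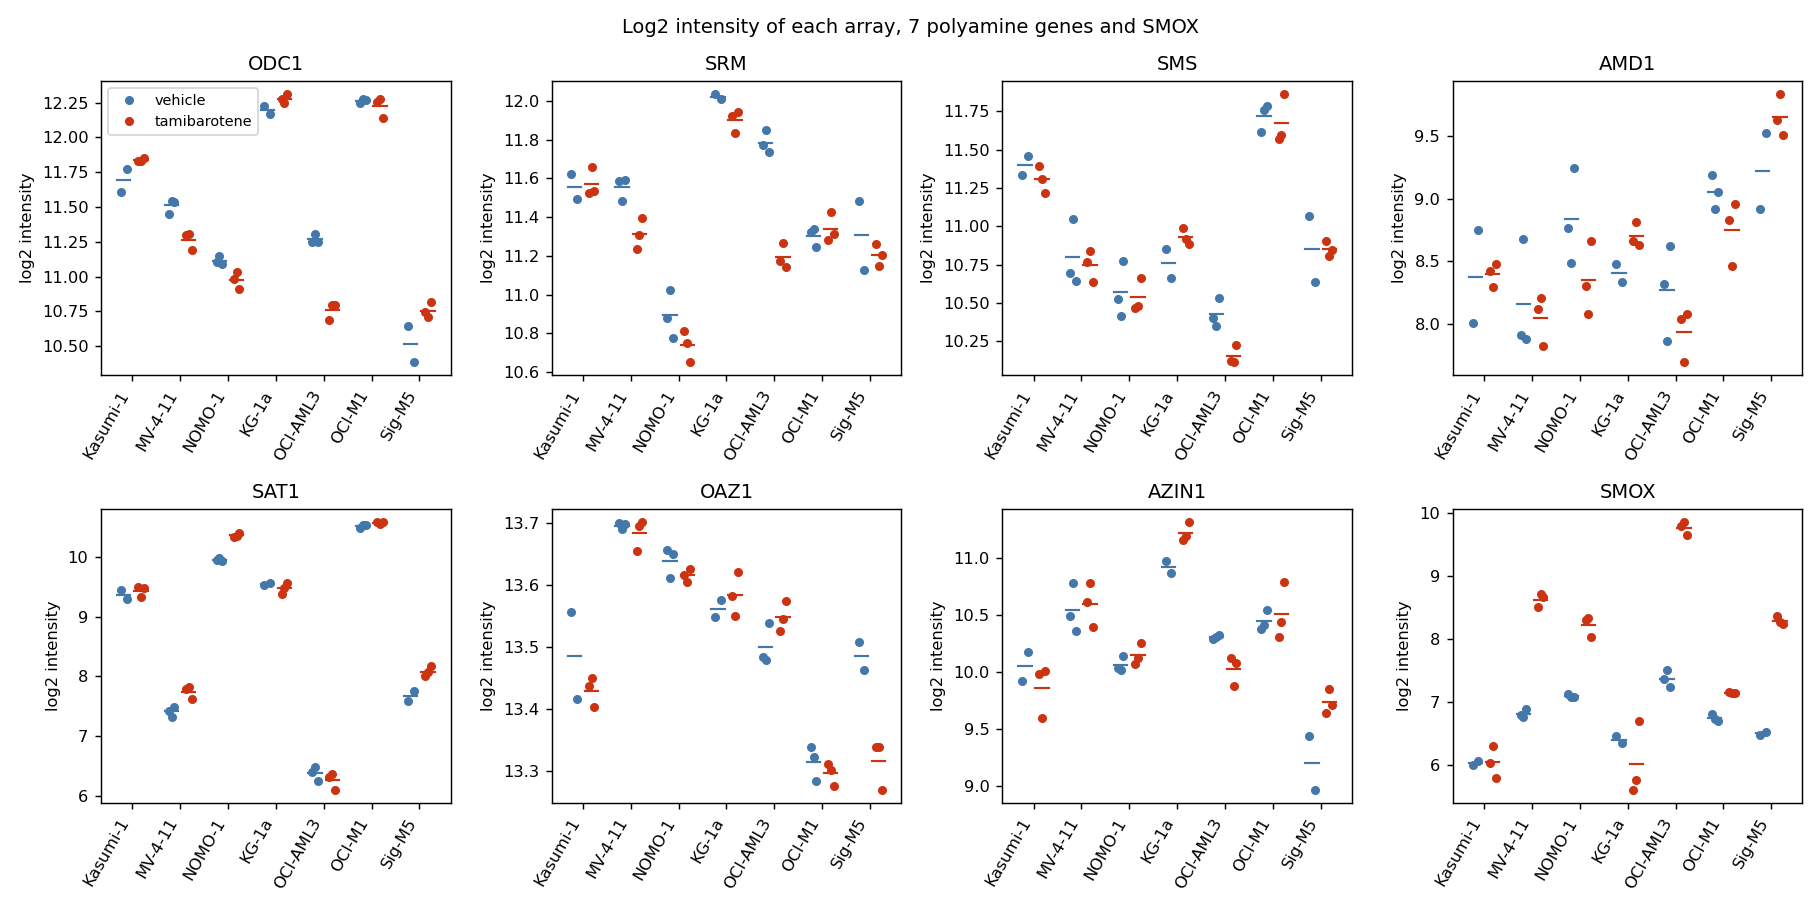
Log2 intensity on the y axis (each panel with its own range) of every array for the 7 genes and for SMOX, by line on the x axis; blue points are vehicle arrays, red points tamibarotene arrays and bars group means. For ODC1 and SRM in OCI-AML3 all 3 red points lie below all 3 blue ones, and SAT1 ranges from 6.37 in OCI-AML3 to 10.52 in OCI-M1 in vehicle.

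Single steps of the pathway were called as changed after tamibarotene in some lines and none in others, which does not show that nothing changed there. Of the 49 differences between arms, 7 genes in 7 lines, 5 rises and 4 falls had an adjusted p under 0.05. OCI-AML3 had falls of ODC1 and SRM, MV-4-11 and NOMO-1 rises of SAT1, and Sig-M5 changes in 4 genes, of which SAT1 alone stayed called without vehicle replicate 2. None of the 7 genes was called in Kasumi-1, KG-1a or OCI-M1, where limma called 2.84%, 3.09% and 1.09% of all genes. The share in Kasumi-1 was 0.0827% without vehicle replicate 2, 10.1% without vehicle replicate 3, 0.199% without tamibarotene replicate 2 and 6.15% without tamibarotene replicate 1. That in KG-1a was 1.56% without vehicle replicate 1 and 1.43% without vehicle replicate 2. The counts were 2 of 7 in MV-4-11 (7.72% of all genes), 1 of 7 in NOMO-1 (3.48%), 2 of 7 in OCI-AML3 (11.9%) and 4 of 7 in Sig-M5 (26.9%). By direction, the 2 falls in OCI-AML3 stood beside 6.36% of all genes called lower and 5.5% called higher. The 3 rises and 1 fall in Sig-M5 stood beside 8.5% called higher and 18.4% called lower. Each array read RNA from a whole culture, so fewer cells of a type and less RNA per cell cannot be told apart.

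The median difference over the 7 genes was -0.28 in OCI-AML3, against -0.03 over all genes, and 0.24 in Sig-M5, against -0.10. In the other 5 lines it lay between -0.05 and 0.08. The tamibarotene and vehicle arrays did not overlap for 4 of 7 genes in OCI-AML3, against 30.7% of all genes, and for 4 of 7 in Sig-M5, against 47.9%. In KG-1a they did not overlap for 5 of 7 genes, against 39.1%, although none was called. They did not overlap for 3 genes in MV-4-11 (20.2% of all genes), 2 in NOMO-1 (16%), 1 in Kasumi-1 (27.1%) and 1 in OCI-M1 (11.8%).

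**Figure D2:**
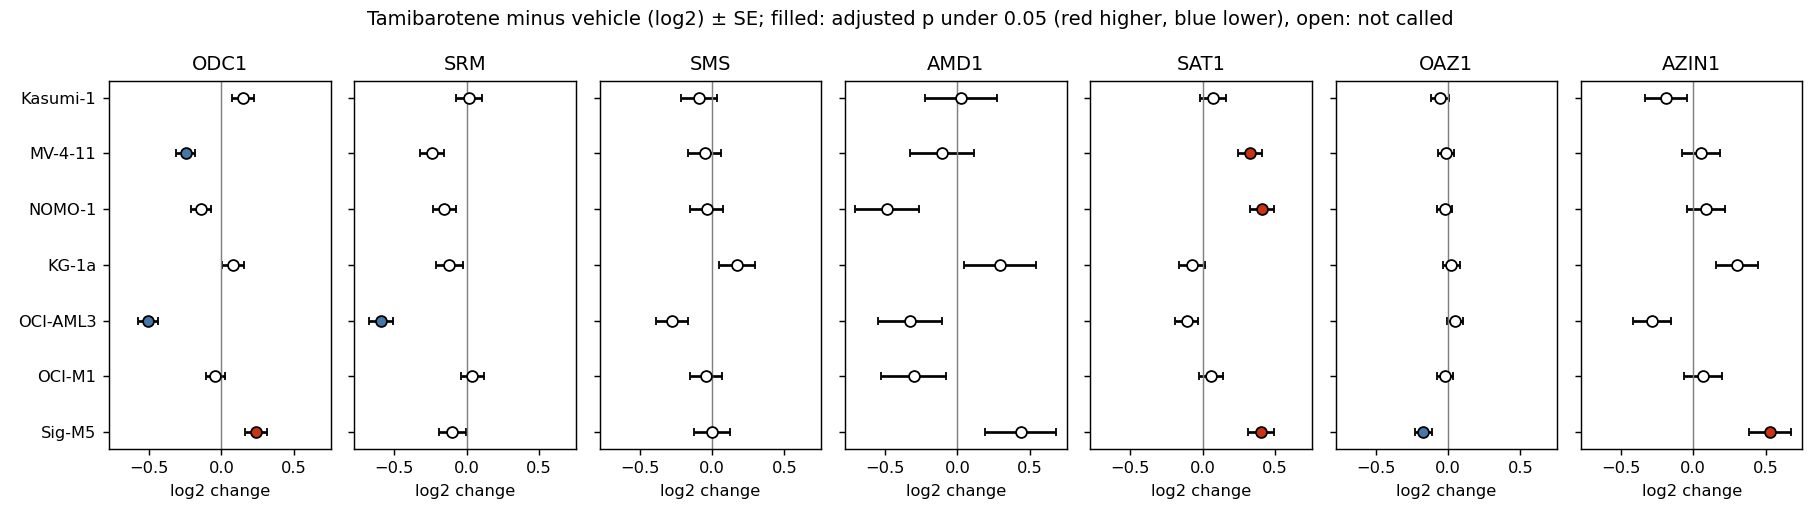
Difference of tamibarotene minus vehicle on the x axis (log2, bars ± SE of the fit) for the 7 genes, with the 7 lines on the y axis; filled points had an adjusted p under 0.05 (red higher, blue lower) and open points did not. ODC1 and SRM are lowest in OCI-AML3, at -0.51 and -0.59, and SAT1 is at 0.33 to 0.41 in MV-4-11, NOMO-1 and Sig-M5.

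ODC1, the entry enzyme, fell most in OCI-AML3. Its vehicle arrays read 11.25, 11.31 and 11.25 and its tamibarotene arrays 10.69, 10.79 and 10.80. The arms did not overlap, and the difference was -0.51 ± 0.07 (SE, 1.42-fold lower, adjusted p = 1.36e-06). Without any 1 array, and under every other setting tried, it stayed called, between -0.53 and -0.47.

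In MV-4-11 the ODC1 vehicle arrays read 11.45, 11.55 and 11.54 and the tamibarotene arrays 11.30, 11.30 and 11.19. All treated values lay below all vehicle values, a fall of 0.25 ± 0.07 (adjusted p = 0.0168), and 3.4% of all genes were called lower in that line. This call was lost with the replicate number as a block (adjusted p = 0.0579), with the line fitted alone (0.223) and without tamibarotene replicate 3 (0.106), vehicle replicate 2 (0.0685) or vehicle replicate 3 (0.0698).

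In NOMO-1 ODC1 went from 11.10, 11.15 and 11.09 to 10.98, 11.03 and 10.91. Every treated array was lower, but the difference of -0.14 ± 0.07 was not called (adjusted p = 0.347, 95% interval -0.28 to -0.00077). Kasumi-1 moved from 11.61 and 11.77 to 11.83, 11.83 and 11.85 (0.15, adjusted p = 0.314), KG-1a by 0.08 (0.811) and OCI-M1 by -0.04 (0.999). Of these, the arms overlapped in OCI-M1 only.

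In Sig-M5 ODC1 was at 10.64 and 10.39 in vehicle and at 10.74, 10.71 and 10.81 with tamibarotene, a rise of 0.24 ± 0.08 (adjusted p = 0.0175). Vehicle replicate 2, the array with the actin difference of 1.89, held the lowest value. Without it the difference was 0.11 (adjusted p = 0.461), and with the actin difference as a covariate it was 0.07 (0.777). The call was also lost without tamibarotene replicate 3 (adjusted p = 0.0651), with the replicate number as a block (0.114), with array weights (0.0691) and with the line fitted alone (0.284).

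The response of ODC1 differed between the 7 lines by the F test (adjusted p = 1.08e-05), which called 27.4% of all genes. Set against the mean of the other 6 lines, OCI-AML3 was lower by -0.51 ± 0.07 (adjusted p = 1.04e-05) and Sig-M5 higher by 0.36 ± 0.08 (0.00154). Such a contrast called 7.83% of all genes for OCI-AML3 and 22.9% for Sig-M5. For the remaining lines the share was 5.36% (Kasumi-1), 4.9% (KG-1a), 4.79% (MV-4-11), 3.5% (OCI-M1) and 2.61% (NOMO-1), and no member was called in them. The mean of the 7 lines was -0.07 ± 0.03 and was not called (adjusted p = 0.0818), and it became -0.12 without Sig-M5 (0.0018). The only ODC1 probe set leaves no second reading of these values.

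MYC, given beside ODC1 as its known regulator, read 11.92, 11.92 and 11.85 in OCI-AML3 vehicle arrays and 11.28, 11.19 and 11.24 with tamibarotene. That was a fall of 0.66 ± 0.10 (adjusted p = 1.61e-05) in the line where ODC1 and SRM fell. In Sig-M5 MYC went from 11.47 and 10.86 to 11.75, 11.78 and 11.73, a rise of 0.59 ± 0.11 (adjusted p = 0.000203). As for ODC1, vehicle replicate 2 held the lowest value, and without it the MYC difference was 0.28 (adjusted p = 0.0905). MYC was at -0.28 in MV-4-11 (adjusted p = 0.111) and between 0.14 and 0.22 in the other 4 lines, where neither gene was called. It was read by 1 probe set, and a part of MYC in the ODC1 and SRM changes was not tested.

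AMD1 was not called in any line by the probe set used. Its arrays were more variable than those of the other 6 genes, with SE of 0.22 to 0.25. In NOMO-1 its vehicle arrays read 8.77, 8.49 and 9.24 and its tamibarotene arrays 8.30, 8.08 and 8.67, which overlap. The difference of -0.48 had a 95% interval from -0.94 to -0.03 (adjusted p = 0.313) and was called with the replicate number as a block (0.0428). In Sig-M5 AMD1 went from 8.91 and 9.52 to 9.63, 9.83 and 9.51 (0.44, adjusted p = 0.210), again with overlap. Its 6 probe sets spread from -0.32 to 1.45 there, and 2 of them were called higher. The differences in the other lines ran from -0.33 in OCI-AML3 to 0.29 in KG-1a, and the F test did not call a difference between lines (adjusted p = 0.199). With the replicate number as a block it did (adjusted p = 0.0105), as with array weights (0.0219).

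SRM, which converts putrescine to spermidine, fell in OCI-AML3 from 11.77, 11.85 and 11.73 to 11.17, 11.27 and 11.14. No treated array came near the vehicle arrays, and the difference of -0.59 ± 0.08 (1.51-fold lower, adjusted p = 2.41e-06) was the largest fall among the 7 genes. It stayed called under every setting tried, between -0.65 and -0.56, and the other SRM probe set was at -0.71. In MV-4-11 SRM went from 11.59, 11.48 and 11.59 to 11.23, 11.31 and 11.40. The arms did not overlap, but the difference of -0.24 ± 0.08 missed the threshold (adjusted p = 0.0712). The other probe set was called there at -0.41 in a test of every probe set.

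In the remaining lines SRM lay between -0.15 in NOMO-1 and 0.04 in OCI-M1, and none was called. KG-1a vehicle arrays read 12.03 and 12.01 and its tamibarotene arrays 11.92, 11.83 and 11.95, all lower, at -0.12 (adjusted p = 0.702). The response differed between lines (F test, adjusted p = 0.00183), and OCI-AML3 was lower than the mean of the others by -0.50 ± 0.09 (adjusted p = 0.000228). Over the 7 lines the mean SRM difference was -0.16 ± 0.03 (adjusted p = 0.000323), where 19.1% of all genes were called and 12.4% were called lower. That mean rests on the arrays within groups and holds for these 7 lines only.

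SMS, the next synthase, was not called in any line. In OCI-AML3 it went from 10.40, 10.53 and 10.35 to 10.12, 10.12 and 10.22, without overlap, at -0.28 ± 0.11 (adjusted p = 0.124, 95% interval -0.50 to -0.05). With the replicate block this difference was called (adjusted p = 0.0493). In KG-1a the treated SMS arrays were all higher, at 0.17 (adjusted p = 0.683), and in the other 5 lines the arms overlapped. The F test did not call a difference between lines (adjusted p = 0.468), except with array weights (0.0387). A further SMS probe set lay at 3.72 or less on every array and carries little signal.

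SAT1, which acetylates polyamines, was the member with most rises. In NOMO-1 its vehicle arrays read 9.94, 9.98 and 9.94 and its tamibarotene arrays 10.34, 10.36 and 10.40. Each arm varied by less than 0.1, the arms were far apart, and SAT1 rose by 0.41 ± 0.08 (1.33-fold, adjusted p = 0.00145; 2.77% of all genes were called higher). The other probe sets were at 0.40 and 0.69 and were not called, and the rise itself was lost with the line fitted alone (adjusted p = 0.107).

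In MV-4-11 SAT1 went from 7.42, 7.32 and 7.49 to 7.79, 7.81 and 7.61, again with no overlap. The rise was 0.33 ± 0.08 (1.25-fold, adjusted p = 0.00651; 4.32% of all genes were called higher), and the other probe sets were at 0.67 and 0.26. It was lost without vehicle replicate 2 (adjusted p = 0.0513) or tamibarotene replicate 2 (0.0522), with its probe sets averaged (0.0504) and with the line fitted alone (0.147). In Sig-M5 SAT1 went from 7.59 and 7.76 to 8.0, 8.07 and 8.17, at 0.40 ± 0.09 (adjusted p = 0.000946). Unlike ODC1 and AZIN1, it stayed called without either vehicle array and with the actin covariate (0.56), and was lost only with the line fitted alone (adjusted p = 0.0672). Its other probe sets in Sig-M5 disagreed, at -0.19 (not called) and 1.0 (called).

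In OCI-M1, the line with the highest SAT1 level, the 3 treated arrays (10.59, 10.56 and 10.58) all exceeded the vehicle arrays (10.49, 10.53 and 10.53), but the difference of 0.06 was not called (adjusted p = 0.999). SAT1 overlapped between arms in Kasumi-1 (0.07), KG-1a (-0.07) and OCI-AML3 (-0.11). The response differed between lines (F test, adjusted p = 0.00108). OCI-AML3 lay below the mean of the other 6 by -0.31 ± 0.09 (adjusted p = 0.0226) and Sig-M5 above it by 0.29 ± 0.10 (0.0272). With its probe sets averaged the F test no longer called SAT1 (adjusted p = 0.225). The mean over the 7 lines was 0.15 ± 0.03 (adjusted p = 0.000551), where 6.71% of all genes were called higher.

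OAZ1, the antizyme, was called in 1 line. In the other 6 lines its difference lay between -0.06 in Kasumi-1 and 0.05 in OCI-AML3, the arms overlapped, and the SE was 0.05 or 0.06. In Sig-M5 it went from 13.51 and 13.46 to 13.34, 13.34 and 13.27, which do not overlap, a fall of 0.17 ± 0.06 (adjusted p = 0.0362). This call was lost in 8 of 48 alternatives, among them the replicate block (adjusted p = 0.215), array weights (0.131), the actin covariate (0.364) and the line fitted alone (0.435). It was also lost without vehicle replicate 1 (0.156), vehicle replicate 2 (0.0831) or tamibarotene replicate 3 (0.111). The 6 OAZ1 probe sets disagreed in that line, from -0.17 to 0.39, with 1 called lower and 1 called higher, and their mean was at 0.03 (adjusted p = 0.777). The F test did not call a difference between lines (adjusted p = 0.404), except with trend and robust variances (0.0246).

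AZIN1, the antizyme inhibitor, was called in Sig-M5 alone, where its vehicle arrays read 9.44 and 8.97 and its tamibarotene arrays 9.64, 9.85 and 9.71. The arms did not overlap, the lower vehicle value was that of replicate 2, and the rise was 0.53 ± 0.15 (1.44-fold, adjusted p = 0.00676). Without vehicle replicate 2 it was 0.30 (adjusted p = 0.299), and with the actin covariate 0.23 (0.583). The other AZIN1 probe set was at 0.39 in Sig-M5 and was not called (adjusted p = 0.192 in a limma test of every probe set). It was not called in the other lines either, at 0.65 in KG-1a, 0.11 in MV-4-11, 0.04 in OCI-M1, -0.20 in NOMO-1, -0.20 in OCI-AML3 and -0.56 in Kasumi-1. In KG-1a AZIN1 went from 10.97 and 10.87 to 11.15, 11.19 and 11.31, all higher, at 0.30 ± 0.15 (adjusted p = 0.405). In OCI-AML3 it went from 10.29, 10.31 and 10.32 to 10.12, 9.87 and 10.08, all lower, at -0.28 ± 0.13 (adjusted p = 0.208). The F test called a difference between lines (adjusted p = 0.0284), which was lost without Sig-M5 (0.195), without its vehicle replicate 2 (0.127), without its tamibarotene replicate 2 (0.0632), without OCI-AML3 tamibarotene replicate 2 (0.0603), without Kasumi-1 and Sig-M5 (0.167) and with the actin covariate (0.0571).

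**Figure D3:**
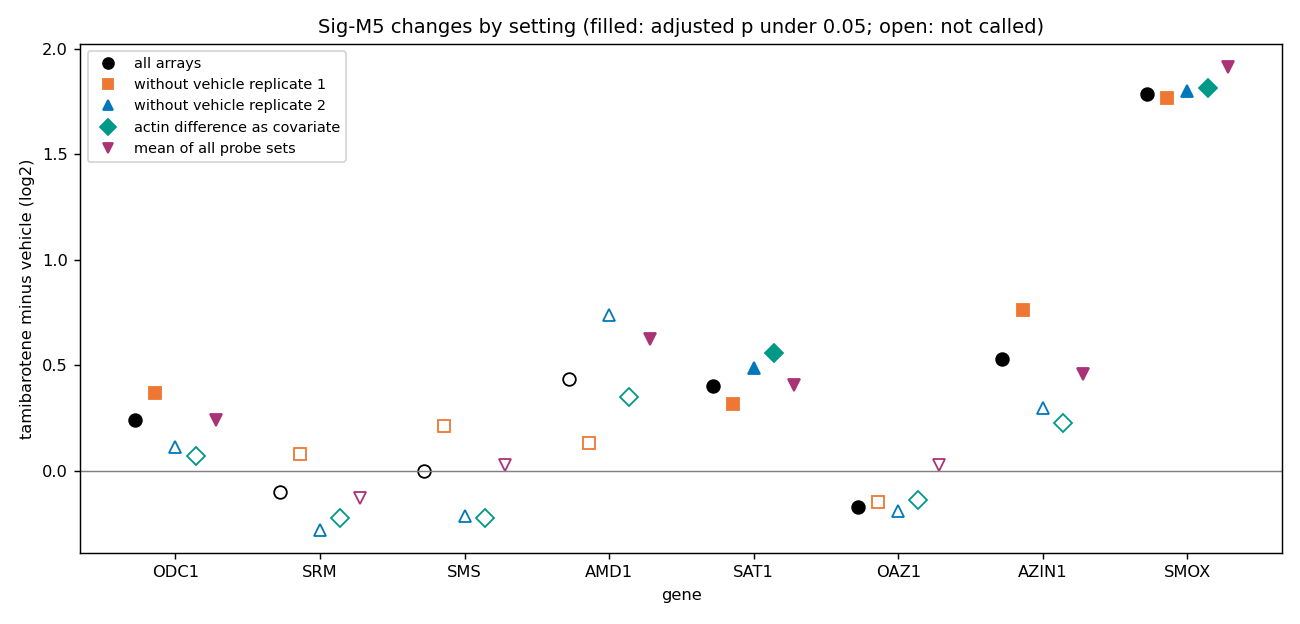
Difference of tamibarotene minus vehicle in Sig-M5 on the y axis (log2) for the 7 genes and SMOX on the x axis, under 5 settings that symbols tell apart; filled symbols had an adjusted p under 0.05. ODC1 goes from 0.24 to 0.11 and AZIN1 from 0.53 to 0.30 without vehicle replicate 2, while SMOX stays between 1.75 and 1.91.

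The Sig-M5 count of 4 called genes was 1 without vehicle replicate 2 and 2 without tamibarotene replicate 3, while the share of all genes called there went from 26.9% to 14.9% and 23.9%. With the actin covariate the count was 1, SAT1, and the share 9.4%. SRM and SMS were not called in Sig-M5 under any setting tried. AMD1 was called there with its probe sets averaged (0.63, adjusted p = 0.0498) and with the replicate number as a block (0.51, 0.0272). Vehicle replicate 2 had the largest actin difference of the 39 arrays, and its part in the Sig-M5 results was not tested beyond these values.

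A further 26 genes of the surrounding pathway, all measured, were examined by role. They supply ornithine and S-adenosylmethionine (6 genes), salvage methylthioadenosine (5), oxidise or acetylate polyamines (3), belong to the antizyme family (3), transport polyamines or their precursors (5) or make and carry the spermidine-derived residue hypusine (4). Rises and falls numbered 3 and 3 in MV-4-11 (4.32% and 3.4% of all genes), 1 and 5 in OCI-AML3 (5.5% and 6.36%) and 5 and 5 in Sig-M5 (8.5% and 18.4%). There was 1 rise in NOMO-1, where 2.77% of all genes were called higher. Kasumi-1 had 1 fall, KG-1a 1 rise and OCI-M1 none of either. In these lines 2.84%, 3.09% and 1.09% of all genes were called in either direction. The median over the 26 differed from that of all genes by little, for example -0.08 against -0.03 in OCI-AML3.

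SMOX, the spermine oxidase that turns spermine back to spermidine, rose in 4 lines. In OCI-AML3 it went from 7.37, 7.51 and 7.25 to 9.80, 9.86 and 9.66, a rise of 2.40 ± 0.16 (adjusted p = 5.23e-13). In MV-4-11 it went from 6.80, 6.78 and 6.89 to 8.51, 8.72 and 8.67 (1.81, adjusted p = 2.98e-10), and in NOMO-1 from 7.13, 7.08 and 7.08 to 8.31, 8.35 and 8.03 (1.13, adjusted p = 1.22e-05). In Sig-M5 the vehicle arrays read 6.49 and 6.52 and the tamibarotene arrays 8.36, 8.27 and 8.24 (1.79, adjusted p = 5.02e-09). The arms were far apart in these 4 lines, all 4 SMOX probe sets were called there, and the rises stayed called under every setting tried.

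SMOX was at 0.01 in Kasumi-1 and at 0.40 in OCI-M1 (adjusted p = 0.429), and 1 of its 3 other probe sets was called in OCI-M1, at 1.09. KG-1a vehicle arrays read 6.47 and 6.35 and its tamibarotene arrays 5.62, 5.76 and 6.71. Treated replicate 3 stood above the vehicle arrays there and the other 2 below, and the difference of -0.38 was not called (adjusted p = 0.367) but was -0.72 without that array (0.000287). The 3 other KG-1a probe sets of SMOX lay between -0.02 and 0.20. The response differed between lines (F test, adjusted p = 1.78e-10). OCI-AML3 (1.60), MV-4-11 (0.92) and Sig-M5 (0.89) were called above the mean of the other 6 lines, and KG-1a (-1.64), Kasumi-1 (-1.18) and OCI-M1 (-0.72) below it. PAOX, the acetylpolyamine oxidase, and SAT2 were not called in any line. Each lay between 0.34 and 0.47 in MV-4-11 and NOMO-1, where the PAOX probe sets ran from 0.09 to 0.47 and from 0.07 to 0.50. PAOX and SAT2 were at 0.14 and 0.31 in OCI-AML3, -0.26 and -0.21 in Kasumi-1, -0.22 and -0.38 in KG-1a and -0.15 and -0.01 in OCI-M1. In Sig-M5 the median of PAOX, SAT2 and SMOX was -0.15.

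**Figure D4:**
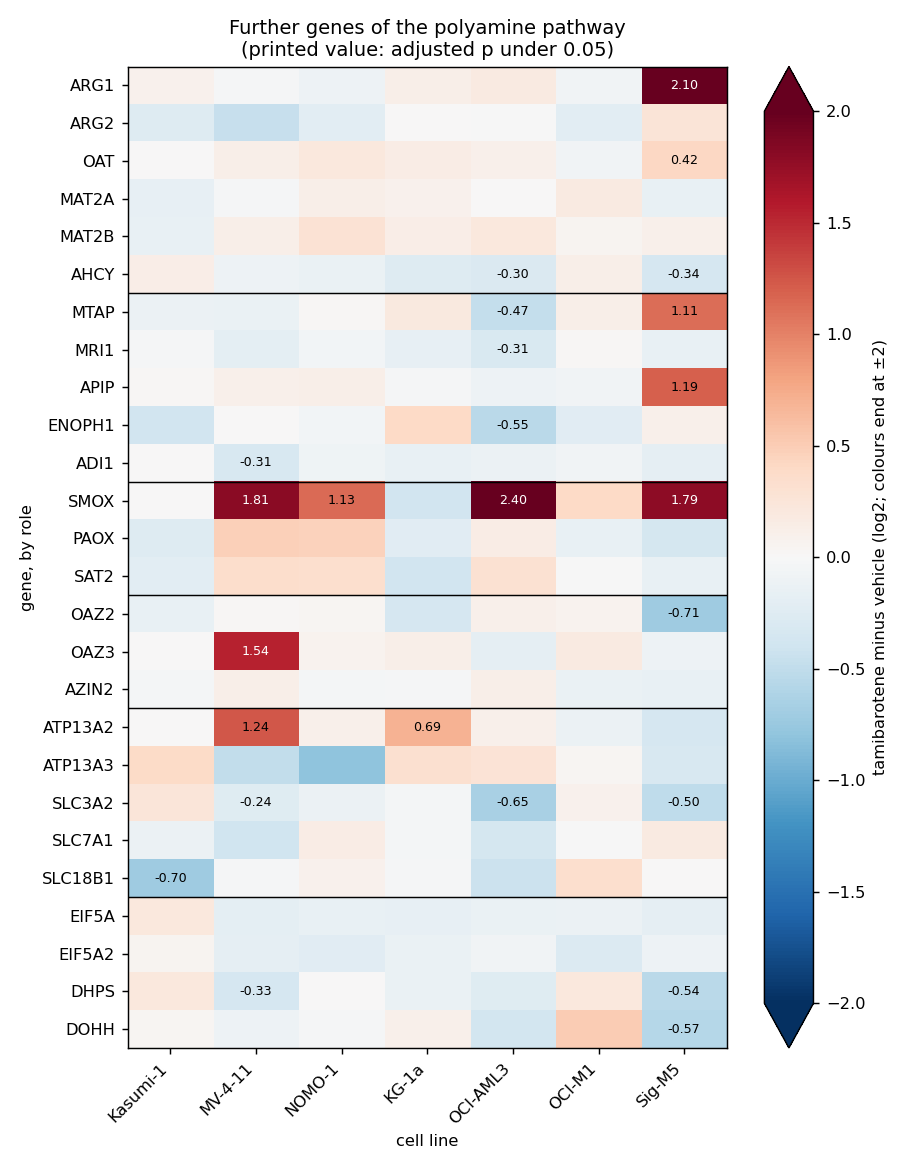
Difference of tamibarotene minus vehicle (log2, colour) for 26 further pathway genes (y axis, grouped by role) in the 7 lines (x axis); printed values had an adjusted p under 0.05. SMOX is the most often called gene of the list, with 1.13 to 2.40 in MV-4-11, NOMO-1, OCI-AML3 and Sig-M5.

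Of the precursor and salvage genes, ARG1, an arginase that yields ornithine, was at 2.69 and 2.76 in Sig-M5 vehicle arrays and at 4.73, 4.85 and 4.88 with tamibarotene. These treated levels remained below the array medians, and the rise was 2.10 ± 0.13 (adjusted p = 2.15e-13), while ARG1 stayed between 2.49 and 3.02 on all arrays of the other 6 lines. APIP, an enzyme of methionine salvage, rose in Sig-M5 by 1.19 ± 0.12 (adjusted p = 4.57e-09), from 7.97 and 7.50 to 8.90, 9.05 and 8.82. Its other probe set was at 1.03, and over 48 alternatives the rise ran from 0.72 to 1.43. MTAP, which cleaves methylthioadenosine, rose by 1.11 in Sig-M5 (0.57 to 1.33 over 48 alternatives) and fell by 0.47 in OCI-AML3. Its 6 probe sets spread from -0.32 to 1.21 in Sig-M5, and the OCI-AML3 fall was lost when any of 5 single arrays of that line was left out. In NOMO-1 the MTAP level was between 2.87 and 3.37 on all 6 arrays, against 5.27 or more on every array of the other lines. AHCY, which clears S-adenosylhomocysteine, fell by 0.30 in OCI-AML3 (adjusted p = 0.0162) and by 0.34 in Sig-M5 (0.00765). The OCI-AML3 call was lost when any of 4 single arrays of the line was left out (0.0526 to 0.0731). The Sig-M5 call was lost in 6 of 48 alternatives, among them without vehicle replicate 2 (0.0566) or tamibarotene replicate 2 (0.0640), and its 3 AHCY probe sets ran from -0.46 to 0.14.

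Among regulators and transporters, OAZ3, an antizyme otherwise known from the testis, rose in MV-4-11 from 6.06, 5.51 and 6.31 to 7.27, 7.57 and 7.66 (1.54). ATP13A2, a lysosomal polyamine exporter, rose in MV-4-11 from 7.53, 6.91 and 7.23 to 8.39, 8.32 and 8.70 (1.24 ± 0.16, adjusted p = 5.61e-07). In KG-1a it rose by 0.69 (adjusted p = 0.0206), a call lost when any of 4 single arrays of that line was left out. SLC3A2, the heavy chain of amino acid transporters that is also linked to polyamine export, fell in OCI-AML3 from 10.94, 10.92 and 10.83 to 10.27, 10.27 and 10.20 (-0.65 ± 0.07, adjusted p = 4.82e-08). It fell by 0.24 in MV-4-11 (adjusted p = 0.0354), a call lost in 7 of 48 alternatives, among them the replicate block (0.0912) and 4 single arrays left out (0.0654 to 0.222). In Sig-M5 SLC3A2 fell by 0.50, where its 7 probe sets ran from -0.50 to 0.60, and the call was lost with their mean (adjusted p = 0.415). DHPS, which starts hypusine synthesis on the translation factor eIF5A, fell by 0.33 in MV-4-11 (adjusted p = 0.0262) and by 0.54 in Sig-M5 (0.000297), and EIF5A was not called in any line. The DHPS call in MV-4-11 was lost in 7 of 48 alternatives, among them 4 single arrays left out (0.0548 to 0.149), while that in Sig-M5 was kept in all 48.

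The genes most like a member were sought among the 9066 genes above the median mean, by Pearson's r over the 39 arrays after each line's own level was subtracted. The arrays of a line share that subtraction and the drug, so r is a description only. For ODC1 they were PNP (0.928), PNO1 (0.884) and SPG21 (0.878), and for SRM POLR2D (0.911), IFRD2 (0.909) and NRROS (0.892). ODC1 and SRM had r = 0.739 with each other. SMS was most like EIF4B (0.868), RBMX (0.867) and HSPA9 (0.854), and AMD1 most like IARS1 (0.854), DCAF13 (0.843) and EIF3J (0.842). SAT1 had the weakest likenesses, to THEMIS2 (0.758), ZFAS1 (0.754) and TIFA (0.750). OAZ1 was most like PPP1CA (0.788), BAHCC1 (0.781) and ARL6IP4 (0.779), and AZIN1 most like ZDHHC6 (0.911), CBFB (0.892) and FUBP1 (0.864). The actin difference had r = 0.635 with OAZ1, -0.457 with AZIN1 and -0.397 with ODC1, and -0.0189 to -0.238 with the other 4 members. It had r of 0.565 to 0.746 with the 3 genes most like OAZ1, -0.650 to -0.486 with those most like AZIN1, -0.427 to -0.340 with those most like ODC1 and -0.531 with TIFA. Its part in those likenesses was not tested.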

How the data were processed

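The 39 PrimeView arrays carry the deposited log2 intensities, which per the submitters' processing notes the authors obtained by RMA (affy, no version given). Whether all arrays were normalized together is not given in the sources used here. The table holds 49395 probe sets: 44988 name 1 symbol, 1832 several, 2473 none and 102 are controls. Symbols are those of the platform annotation. For 18132 genes the probe set with the highest mean was tested, and 11734 genes had several. Cross-hybridising sets (suffixes _s_ and _x_) are among those used for SMS, AMD1, SAT1, OAZ1 and AZIN1, so that these readings may include related transcripts. The highest correlation between arrays of a group was 0.9972, so none was a copy.

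Limma 3.58.1 (R 4.3.3) fitted 14 group means to all arrays, with eBayes without trend and 25 residual degrees of freedom. Two-sided p-values received the Benjamini-Hochberg adjustment over the 18132 genes in each contrast, and those under 0.05 were called, with no minimum fold. Errors are SE of the fit unless SD is named. The F tests have 6 degrees of freedom. Plots used Python 3.11.15 and matplotlib 3.10.9. The number of arrays limits the precision.

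The members and gene lists were chosen with earlier results of these data known. Of the 26 further genes, those called in at least 2 lines or with a log2 change of at least 1 in a called line were named with values. MYC, as regulator, and CD38, DHRS3 and CYP26A1, as drug check, were set choices to which this rule was not applied. PAOX, SAT2 and EIF5A fell outside this rule and were named after their values were seen, and the sequence windows were also chosen then. Alternatives were trend and robust variances, array weights, quantile normalization, the mean of all probe sets, every probe set, a filter on dim genes, the actin covariate, the replicate block, each line alone, each array left out, and leaving out Sig-M5 or Kasumi-1 and Sig-M5.

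Replicate numbers are shared between arms. The correlation of same-numbered deviations from group means was above 0.1 for every pair in OCI-M1 alone (0.118 to 0.371), where the block changed no member's call. It reached higher values for single pairs in MV-4-11 (0.0995 to 0.670), NOMO-1 (0.0105 to 0.572) and OCI-AML3 (-0.0425 to 0.461). In each of these lines the block changed a member's call, as it did in Sig-M5 (-0.0448 to -0.0416). Such a pairing is a hint from the values that no label states.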

Additional observations from a re-analysis of the deposited data

Results flagged for a closer look

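For 4 of the 7 genes the response to tamibarotene differed between the 7 lines by limma's F test. The adjusted p was 1.08e-05 for ODC1, 0.00183 for SRM, 0.00108 for SAT1 and 0.0284 for AZIN1. The same test gave a difference for 10 further genes named above. Its adjusted p was 2.99e-10 for ARG1, 0.0154 for AHCY, 0.000167 for MTAP and 2.27e-06 for APIP. It was 1.78e-10 for SMOX, 3.25e-06 for OAZ3 and 3.68e-05 for ATP13A2. It was 8.94e-07 for SLC3A2, 0.000709 for DHPS and 4.01e-06 for MYC. The F test called 27.4% of all genes, so a difference between lines is common on these arrays. Apart from MYC, these further genes were named for a call in at least 2 lines or a called log2 change of at least 1. Such a choice favours a difference between lines, so their count cannot be compared with that share. The F test is not given for the further pathway genes outside that rule.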

How the results depend on the processing

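Of 1344 values under other settings, 1273 kept their side of the threshold (38 of them uncalled values that changed sign), 41 lost a call, 29 gained one and 1 called value changed sign. With single arrays left out, 5790 of 5850 kept their side (43 uncalled values changed sign), 49 lost a call and 11 gained one. OAZ1 in Sig-M5 turned from -0.17 to 0.028 (adjusted p = 0.777) when all its probe sets were averaged. Counts of called members changed as follows. With array weights they were 1 in KG-1a (all genes called 3.09% to 13.9%), 5 in OCI-AML3 (11.9% to 24.7%), 3 in MV-4-11, where SRM was gained, and 2 in Sig-M5 (26.9% to 17.8%), and Kasumi-1 went from 2.84% to 0.0717% with none called. With the actin covariate the Sig-M5 count was 1 (26.9% to 9.4%). With each line fitted alone the count was 0 in NOMO-1 (3.48% to 1.11%), 0 in MV-4-11 (7.72% to 4.99%) and 1 in Sig-M5 (26.9% to 19.7%). The total fell from 9 to 3. With the replicate block the counts were 1 in MV-4-11 (7.72% to 8.75%), where ODC1 was lost, and 2 in NOMO-1 (3.48% to 5.53%), where AMD1 was gained. They were 3 in OCI-AML3 (11.9% to 13.4%), where SMS was gained, and 3 in Sig-M5 (26.9% to 27.5%), where ODC1 and OAZ1 were lost and AMD1 gained. The total with the replicate block was 9, and 12 of 18 same-numbered pairs matched best with their own number. Without single arrays the total ran from 7 to 9, MV-4-11 from 0 to 3, Sig-M5 from 1 to 4, the mean of the 7 lines from 2 to 3, the F test of responses from 3 to 4 and that of vehicle levels stayed at 7. Quantile normalization moved the median of all genes by less than 0.1 in every line. Dim probe sets such as those of ARG1 and a further one of SMS limit what a fold there means.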

Other observations

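AMD1 varied together in same-numbered arrays of both arms. Over 18 same-numbered pairs, its deviations from the group means had the same sign in 15 and a Pearson's r of 0.751, against a median of 0.195 over all genes, and 0.739% of genes were at or above it. In NOMO-1 replicate 3 was the highest in both arms (9.24 and 8.67) and replicate 2 the lowest (8.49 and 8.08). SMS had r = 0.663, SRM 0.574 and OAZ1 0.533, whereas ODC1 had 0.194 and SAT1 0.158. This value was looked at after the data were seen.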
